A study of Mus musculus with 8 samples.

Results

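The liver X receptors (LXR) and a set of their sterol efflux and membrane lipid targets were followed in livers of mice whose nuclear receptor corepressors cannot switch on the histone deacetylase HDAC3. The genes were listed by name as Nr1h2, Nr1h3, Abca1, Abcg1, Abcg5, Abcg8, Mylip, Rgs16 and Lpcat3, and each was read from the probe set with the highest mean among those that name that gene alone. Of the 9 listed genes 8 were measured, among 19934 genes in all. Nr1h2, which encodes LXR-beta, was not analysed here. Each of the 8 had 1 probe set, and none of the 8 lay under the median gene level.

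RNA came from whole liver of male C57Bl/6 mice aged 10 to 12 weeks, fed normal chow under equal light and dark phases, and sampled at zeitgeber time 10, which is late in the light phase. The NS-DADm group (4 arrays) carried mutations of the deacetylase activating domain in both NCOR and SMRT, and the WT group (4 arrays) was wild type. Each sample was read on 1 Affymetrix Mouse Gene 1.0 ST array. Values are log2 intensities, and the fold changes hold if that reading of the scale is right. The transcripts of the mutated corepressors were not analysed here, so genotypes rest on the labels, and nothing in the labels says whether each array is a separate animal. The p-values therefore measure how these 8 samples spread, and that spread may be technical. The 10 hepatocyte markers had a mean of 13.58 to 13.62 on every array. Those means lie close to the highest value in the data, 14.37, and the share of hepatocytes was not tested. In whole liver, fewer cells of a type and less RNA per cell cannot be told apart.

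LXR-alpha and LXR-beta are nuclear receptors that bind oxysterols, the oxidised forms of cholesterol, and sit on DNA as partners of RXR. Without ligand they can recruit NCOR and SMRT and hold target genes down, and with ligand they recruit coactivators. Their targets move cholesterol out of cells: ABCA1 and ABCG1 load it onto lipoproteins, ABCG5 and ABCG8 together export it into bile, MYLIP (also called IDOL) marks lipoprotein receptors for degradation, and LPCAT3 puts polyunsaturated chains into phospholipids. RGS16 ends signals from G protein-coupled receptors and is a strongly rhythmic liver transcript. The comparison asked whether these transcripts differed between livers with and without the corepressor mutations.

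Upstream sequences are shown for the genes that lay farthest apart between the genotypes, so that the values can be read beside the DNA in front of each gene. They are RefSeq sequences on GRCm38.p6, taken from promoter windows of 250 bases before to 50 bases after an annotated start. Of the 9 listed genes 8 had a window, 10 windows in all, and Abcg1 had none. Only bases upstream of the annotated start were kept. Abcg5 and Abcg8 are neighbours on opposite strands of chromosome 17, and 109 bases separate the start of Abcg5 from one of the annotated starts of Abcg8. Those bases are chr17:84683012-84683120, written on the Abcg8 strand. For Rgs16 the bases are chr1:153740103-153740352 on the plus strand, for Mylip chr13:45389492-45389741 on the plus strand, and for Abca1 chr4:53159989-53160145 on the minus strand. Capitals mark matches to the motifs named after the sequences.
Abcg5-Abcg8: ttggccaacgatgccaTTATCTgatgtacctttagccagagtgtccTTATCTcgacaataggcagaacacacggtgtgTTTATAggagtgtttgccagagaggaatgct
Rgs16: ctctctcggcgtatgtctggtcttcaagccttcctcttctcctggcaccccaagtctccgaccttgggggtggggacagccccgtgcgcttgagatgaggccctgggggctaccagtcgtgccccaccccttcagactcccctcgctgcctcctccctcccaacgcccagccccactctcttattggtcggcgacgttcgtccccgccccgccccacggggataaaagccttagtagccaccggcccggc
Mylip: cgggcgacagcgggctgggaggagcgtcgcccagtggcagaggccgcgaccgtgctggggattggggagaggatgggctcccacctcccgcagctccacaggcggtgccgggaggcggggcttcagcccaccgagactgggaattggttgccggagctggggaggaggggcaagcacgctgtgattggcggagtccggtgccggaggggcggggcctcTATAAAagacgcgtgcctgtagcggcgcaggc
Abca1: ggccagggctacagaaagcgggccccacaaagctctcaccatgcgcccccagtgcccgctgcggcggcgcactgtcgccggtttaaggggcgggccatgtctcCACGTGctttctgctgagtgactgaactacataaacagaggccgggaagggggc

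The windows were searched on both strands for DR4, the textbook LXR-RXR element, taken as a pair of hexamers in direct repeat with 4 bases between them and each at most 1 mismatch from AGGTCA. None of the 10 windows held one, against 1.75% of 32851 windows of the same length. That says only that no pair within this limit is in these windows, and a looser limit was not searched. The Abca1 window holds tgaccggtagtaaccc, downstream of the bases printed. Its other strand reads GGGTTA and CGGTCA with 4 bases between them. GGGTTA differs from AGGTCA at more than 1 base, so that pair was not counted. The E-box CACGTG, the element of the clock activators, was in the Abca1 window alone, 54 bases before the outermost annotated start, against 7.15% of all windows. The Rgs16 sequence held none of the motifs searched. The letters AGATAA, which GATA factors bind, and the TATA box were added after the sequences had been seen. The former was in 11.2% of all windows and occurred at 2 places between Abcg5 and Abcg8, read there on the Abcg5 strand. The latter, taken as TATAAA, was in 13.6% of all windows and was present between Abcg5 and Abcg8, again on the Abcg5 strand, and 32 bases before the start of Mylip. The Abca1 window also held it, downstream of the bases printed. The bases between Abcg5 and Abcg8 were 45.9% G and C, beside 66.4% for Rgs16 and 71.2% for Mylip. The matches in the member windows did not overlap one another.

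None of the 8 measured members passed the test across all genes (limma, Benjamini-Hochberg adjusted p under 0.05), beside 54 of 19934 genes, or 0.271%. The members lay in both directions, with 5 below 0 and 3 above 0 in NS-DADm livers and a median log2 difference of -0.17, against -0.01 over all genes, of which 55.7% were below 0. Before adjustment 5 of the 8 had a p under 0.05, beside 9.33% of all genes. Of these 4 were lower, beside 5.6% of all genes, and 1 was higher, beside 3.72%. In 2 members, Abcg5 and Abcg8, the 4 NS-DADm arrays all lay below the WT arrays. Groups lay apart in 5.63% of all genes, and apart with the mutants lower in 3.83%. The members were listed with earlier results of these arrays known, so these shares are descriptions. The largest unadjusted p among the 54 called genes was 0.000134, and the smallest among the members was 0.00178. The count of 54 moved when single arrays were left out. Leaving out WT replicates 1 to 4 in turn gave 36, 13, 22 and 54. Leaving out NS-DADm replicates 1 to 4 in turn gave 41, 31, 35 and 126.

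**Figure D1:**
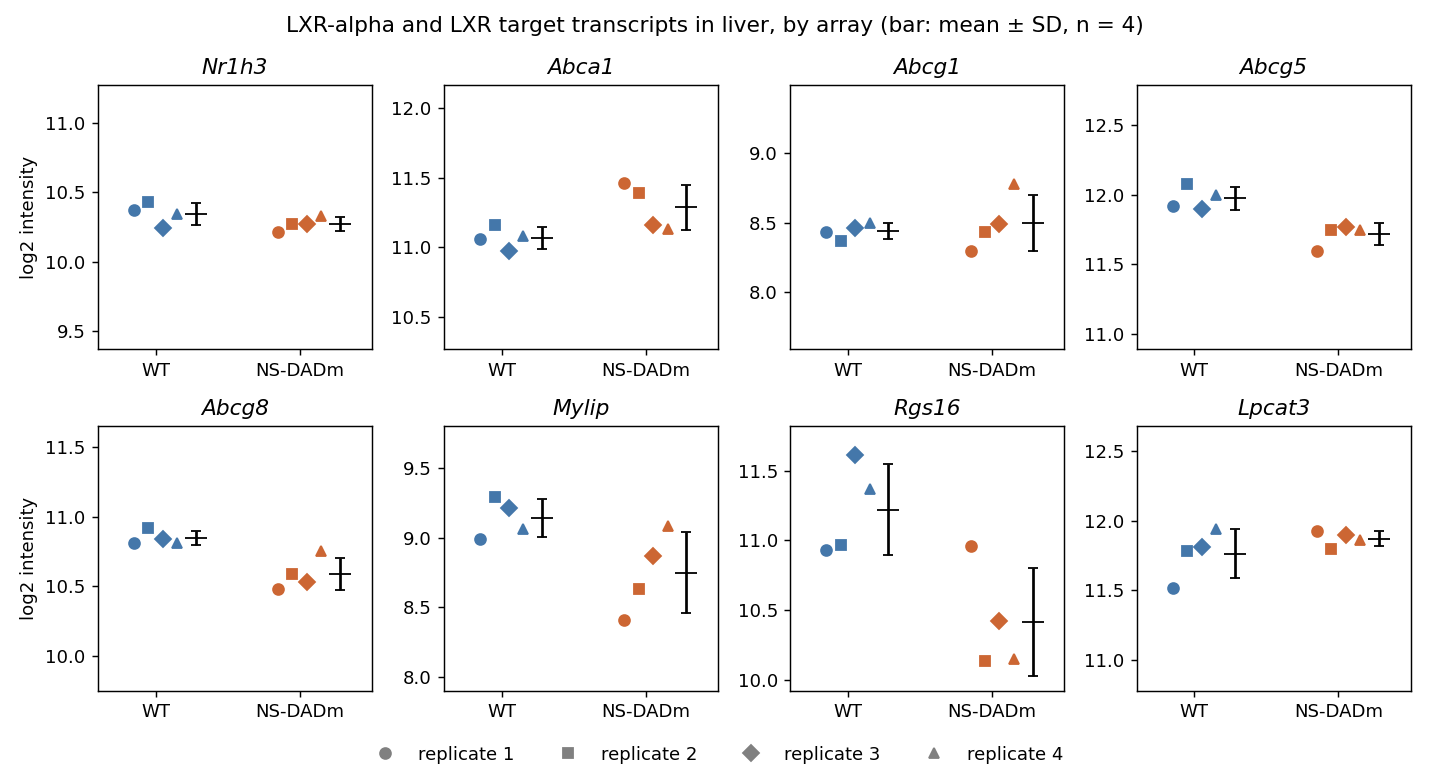
Log2 intensity of the 8 measured members, 1 panel per gene with a common span of the vertical axis, with each array as a point shaped by replicate number and the group mean ± SD (n = 4) as a bar. The groups lie apart for Abcg5 and Abcg8, and the highest NS-DADm array of Rgs16 and of Mylip lies inside the WT range.

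Abcg5 and Abcg8 encode the half-transporters that join into the sterol exporter of the canalicular membrane, where bile leaves the hepatocyte. Abcg5 (Entrez Gene 27409) was at 11.92, 12.08, 11.90 and 12.00 in WT replicates 1 to 4 and at 11.60, 11.75, 11.77 and 11.75 in NS-DADm replicates 1 to 4. Every NS-DADm array was below every WT array. The WT mean was 11.97 ± 0.08 (SD, n = 4) and the mutant mean 11.72 ± 0.08, a log2 difference of -0.26 (SE 0.06, 95% confidence interval -0.39 to -0.12). Its unadjusted p was 0.00178 and its adjusted p over all genes 0.173, so it did not pass the test.

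Abcg8 (Entrez Gene 67470) was at 10.81, 10.92, 10.84 and 10.81 in WT and at 10.48, 10.59, 10.53 and 10.75 in NS-DADm livers. The groups again did not overlap, with NS-DADm replicate 4 closest to the WT arrays. The means were 10.85 ± 0.05 and 10.59 ± 0.12, a log2 difference of -0.26 (SE 0.07, interval -0.40 to -0.11, adjusted p = 0.205). For each of the pair NS-DADm livers were at 0.837-fold of WT. The exact two-sided permutation p was 0.0286 for each, the smallest that 70 splits of 8 arrays allow. The 109 bases printed above lie between the pair, and Abcg8 has another annotated start whose window shares no base with that of Abcg5. Among the 22 measured ABCA and ABCG transporters none passed the test, 9 were above 0 and 13 below, and the median was -0.03. Besides Abcg5, the largest values were those of Abca8b (0.30, adjusted p = 0.506) and of Abcg2, a drug and urate exporter (-0.29, adjusted p = 0.424).

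Abca1 hands cholesterol and phospholipid to APOA1, the first step in making HDL. Abca1 (Entrez Gene 11303) was at 11.06, 11.16, 10.97 and 11.08 in WT and at 11.46, 11.39, 11.16 and 11.13 in NS-DADm livers. NS-DADm replicates 1, 2 and 3 were above all WT arrays, replicate 3 only in the third decimal, and replicate 4 was within their range. The means were 11.07 ± 0.08 and 11.29 ± 0.17, a log2 difference of 0.22 (SE 0.08, interval 0.04 to 0.40), which did not pass the test (adjusted p = 0.422, exact permutation p = 0.0571). Its sign was opposite to that of Abcg5 and Abcg8.

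Abcg1 passes cholesterol to HDL particles that already carry lipid, and macrophages and endothelial cells are rich in it. Abcg1 (Entrez Gene 11307) was at 8.43, 8.37, 8.46 and 8.50 in WT and at 8.30, 8.43, 8.49 and 8.78 in NS-DADm livers. NS-DADm replicate 1 was below all WT arrays and replicate 4 above them. The log2 difference was 0.06 (SE 0.09, interval -0.14 to 0.26, adjusted p = 0.948), and -0.03 without NS-DADm replicate 4. The 10 Kupffer cell and macrophage markers had means of 9.11, 8.80, 8.65 and 9.27 in WT and of 8.53, 8.85, 9.20 and 9.55 in NS-DADm livers. The same NS-DADm arrays were thus lowest and highest for Abcg1 and for these markers, while 0 of the 10 markers passed the test and their median difference was 0.07. The first principal component, the main axis of spread of all genes, ordered the mutant arrays alike. It was -17.45, -9.29, 0.12 and 10.42 in NS-DADm replicates 1 to 4, and -5.29, 6.32, -1.25 and 16.42 in WT. Among the mutants Nr1h3, Abcg8 and Mylip were also lowest in replicate 1 and highest in replicate 4, and Abca1 the reverse. Abcg5, Rgs16 and Lpcat3 followed neither order. The part of macrophage RNA, or of this axis, in the Abcg1 values was not tested.

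The 12 sinusoidal endothelial markers had means of 9.50 to 9.67 in WT and of 9.27, 9.30 and 9.61 in NS-DADm replicates 2, 3 and 4, with replicate 1 lower still. All 12 were below 0, with a median of -0.28, and 1, Dnase1l3, a secreted nuclease, fell (log2 difference -0.59, adjusted p = 0.0233). The 10 stellate cell markers ranged from 8.87 to 9.08 in WT and from 8.60 to 9.23 in NS-DADm livers, with none past the test. Markers of neutrophils, lymphocytes, cholangiocytes, adipocytes and erythroid cells held none past the test, with medians of 0.11, 0.05, 0.01, 0.03 and -0.20. All 8 neutrophil markers were above 0, 2 of them with an unadjusted p under 0.05. Only 2 of the 6 listed erythroid markers were measured, at -0.51 and 0.10. The endothelial and stellate lists were again lowest in NS-DADm replicate 1 and highest, among the mutants, in replicate 4.

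**Figure D2:**
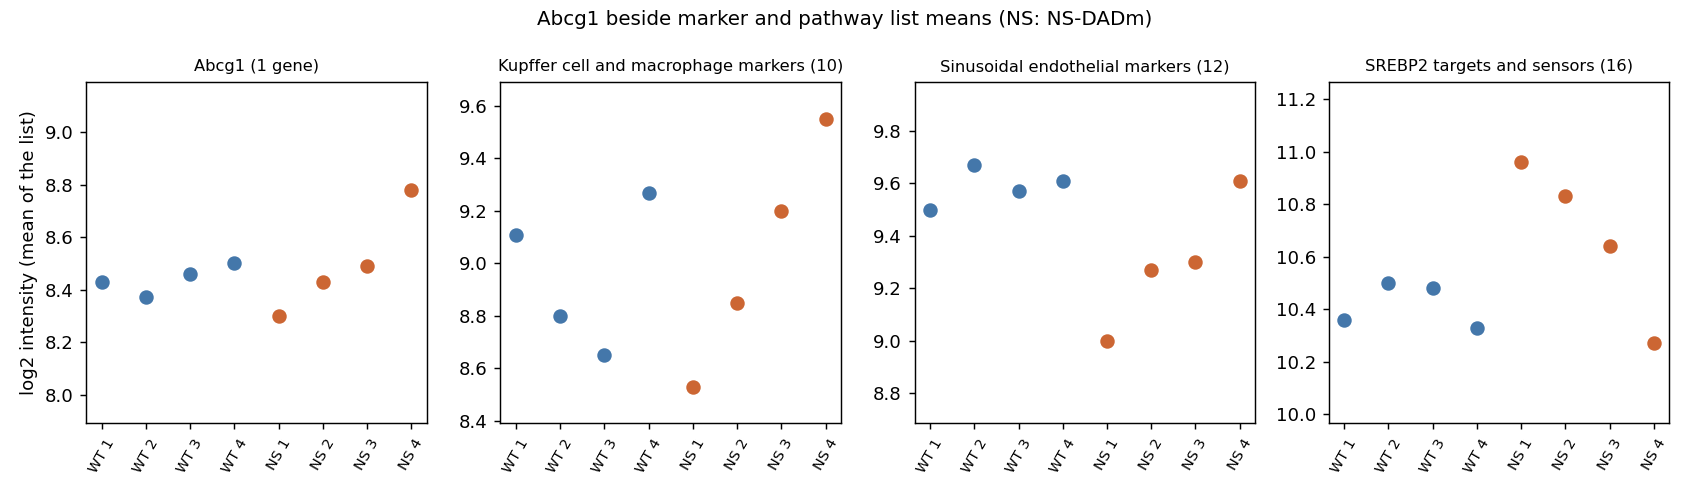
Log2 intensity of Abcg1 and mean log2 intensity of 3 gene lists on each of the 8 arrays (NS stands for NS-DADm), with a common span of the vertical axis. Among the mutants Abcg1 and both marker lists are lowest in replicate 1 and highest in replicate 4, while the mean of the SREBP2 targets runs from 10.96 in replicate 1 to 10.27 in replicate 4.

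Mylip encodes an E3 ubiquitin ligase that sends lipoprotein receptors to the lysosome. Mylip (Entrez Gene 218203) was at 8.99, 9.29, 9.21 and 9.06 in WT and at 8.41, 8.63, 8.87 and 9.08 in NS-DADm livers. NS-DADm replicates 1, 2 and 3 were below all WT arrays and replicate 4 was within their range. The means were 9.14 ± 0.14 and 8.75 ± 0.29, a log2 difference of -0.39 (SE 0.13, interval -0.67 to -0.10), or 0.764-fold, and it did not pass the test (adjusted p = 0.349, exact permutation p = 0.0857). Mylip was lowest and highest in the same mutant arrays as the Kupffer cell, endothelial and stellate cell markers and the main axis of all genes. Their part in the Mylip values was not tested.

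Of 10 measured genes listed as MYLIP substrates and ubiquitin partners none passed the test, with a median of -0.01. Vldlr, the VLDL receptor and a MYLIP substrate, was at 6.52 to 6.79 in WT and at 6.90, 6.96, 7.36 and 7.69 in NS-DADm livers. The groups did not overlap, but the log2 difference of 0.57 missed the threshold (SE 0.15, adjusted p = 0.226), at a level below the median of all genes. Lrp8, another substrate receptor, was at -0.07 (adjusted p = 0.896), also at a level below the median of all genes. Usp2, a deubiquitinase with a rhythmic liver transcript, was at -0.49 (adjusted p = 0.154), and the ubiquitin-conjugating enzyme genes Ube2d1, Ube2d2a, Ube2d3 and Ube2n lay between -0.05 and 0.04.

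Rgs16 encodes a GTPase-activating protein that shuts off Gi and Gq signals. Its transcript had the largest difference of the members and ranked 55 of 19934 genes by absolute log2 difference. Rgs16 (Entrez Gene 19734) was at 10.93, 10.97, 11.61 and 11.37 in WT and at 10.96, 10.13, 10.42 and 10.15 in NS-DADm livers. NS-DADm replicates 2, 3 and 4 were below all WT arrays, and replicate 1 lay between the lowest WT arrays. The means were 11.22 ± 0.33 and 10.41 ± 0.39, a log2 difference of -0.80 (SE 0.20, interval -1.24 to -0.37), which is 1.75-fold higher in WT. It did not pass the test (adjusted p = 0.177, exact permutation p = 0.0571). Without NS-DADm replicate 1 the difference was -0.99 and passed it (adjusted p = 0.0453).

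Of the 20 measured RGS family genes none passed the test, and the median was 0.02, with 12 above 0 and 8 below. The largest values after Rgs16 were Rgs1, an immune cell member, at 0.55 (adjusted p = 0.129), and Rgs5, a pericyte and stellate cell member, at -0.19 (adjusted p = 0.919), which ran from -0.44 to -0.01 over the arrays left out. Rgs1 was low in both groups, with means of 6.17 ± 0.16 for WT and 6.73 ± 0.26 for the mutants. Beside Rgs16, 12 of 17 clock genes and clock outputs were below 0, 5 were above 0 and the median was -0.19. That median was -0.12 without WT replicate 2 and -0.23 without WT replicate 1. One clock gene, the repressor Cry2, fell, at 9.48 to 9.61 in WT and 8.97 to 9.19 in NS-DADm livers (log2 difference -0.51, adjusted p = 0.0102). That call was lost without WT replicate 2 (adjusted p = 0.0684). All samples came from 1 time of day, so rhythms were not measured. The 10 measured targets of ChREBP, the factor that drives genes in response to carbohydrate, had none past the test and a median of 0.08. Its largest values were Gpd1 (0.32, adjusted p = 0.216), Klf10 (0.17) and Pklr (0.13). Over the arrays left out Klf10 ran from 0.08 to 0.29 and Pklr from 0.04 to 0.27.

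Lpcat3 encodes the lysophosphatidylcholine acyltransferase that enriches membranes and VLDL in arachidonic and linoleic acid. Lpcat3 (Entrez Gene 14792) was at 11.52, 11.78, 11.81 and 11.94 in WT and at 11.93, 11.80, 11.90 and 11.86 in NS-DADm livers. The mutant arrays all fell inside the WT range, whose low end was WT replicate 1. The log2 difference was 0.11 (SE 0.08, interval -0.08 to 0.29, adjusted p = 0.802), and 0.03 without WT replicate 1 or 0.17 without WT replicate 4. None of the 14 lysophospholipid acyltransferase genes passed the test, their differences ran from -0.10 to 0.19, and their median was -0.02. Lpgat1 was at 0.19, and Lclat1 at 0.11, or 0.04 without WT replicate 1 and 0.16 without WT replicate 4.

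LXR-alpha is the form richest in liver, and its transcript overlapped between the genotypes. Nr1h3 (Entrez Gene 22259) was at 10.37, 10.43, 10.24 and 10.34 in WT and at 10.21, 10.27, 10.27 and 10.33 in NS-DADm livers. The means were 10.35 ± 0.08 and 10.27 ± 0.05. The log2 difference was -0.08 (SE 0.06, interval -0.20 to 0.05, adjusted p = 0.796). Of 13 RXR and coregulator genes none passed the test and the median was -0.01. Rxra, the main RXR of the hepatocyte, was at -0.09 (adjusted p = 0.697), Rxrb at -0.11 (0.665) and Rxrg at 0.22 (0.569). Rxrg was at 0.12 without WT replicate 1 and at 0.31 without WT replicate 4. Ttc39b, whose product promotes LXR degradation, was at 0.29 (adjusted p = 0.402), and the coactivator Ppargc1a at -0.24 (0.922), or 0.04 without NS-DADm replicate 1.

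**Figure D3:**
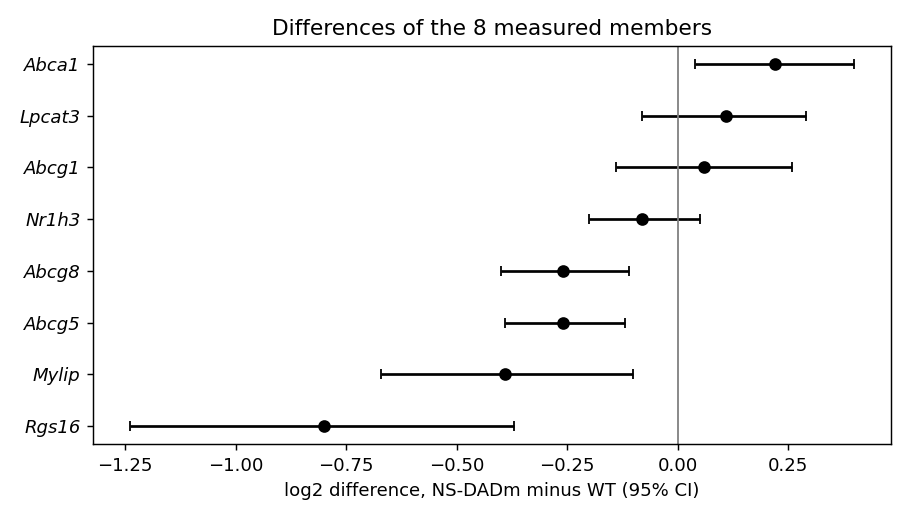
Log2 difference of each measured member, NS-DADm minus WT, with its 95% confidence interval from the fit over all genes. The intervals of Rgs16, Mylip, Abcg5 and Abcg8 lie below 0 and that of Abca1 above 0, while those of Nr1h3, Abcg1 and Lpcat3 include 0.

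The wider LXR programme was described by lists. Of 13 lipogenic targets 1, the fatty acid translocase Cd36, rose, from 8.93 ± 0.41 to 10.21 ± 0.15 (log2 difference 1.28, adjusted p = 0.013), and 10 of the 13 were above 0, with a median of 0.15. The Cd36 call was lost without WT replicate 2 (adjusted p = 0.0539) or WT replicate 3 (0.0534). Cd36 is also a target of other nuclear receptors. The largest values after Cd36 were Fasn (0.41, adjusted p = 0.666), Elovl6 (0.39, 0.438) and Acaca (0.33, 0.630), none past the test. Of the 13, 3 were below 0. Srebf1, the lipogenic factor that LXR drives most directly, was at -0.08 (adjusted p = 0.951), and Scd1, a desaturase, was at 0.08 (0.793). Scd1 had a WT mean of 13.57, close to the highest value in the data, 14.37. Of 14 other LXR targets of liver and macrophages none passed the test and the median was 0.03. Cyp7a1, the rate-limiting enzyme of bile acid synthesis, was at 0.56 (adjusted p = 0.573). It was at 0.35 without WT replicate 4 and at 0.83 without WT replicate 1. Pltp, the phospholipid transfer protein, was at 0.33 (adjusted p = 0.541). Leaving out NS-DADm replicate 4 gave 0.19 and leaving out NS-DADm replicate 3 gave 0.44. Next came Mertk, a receptor of macrophages for dying cells, at -0.29 (0.438).

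Enzymes that make or break down the ligands were measured as 11 genes, none of which passed the test, with a median of -0.06. Cyp39a1, a hydroxylase of 24-hydroxycholesterol, was at 10.03 to 10.36 in WT and at 7.94, 8.43, 9.36 and 10.20 in NS-DADm livers. Mutant replicates 1, 2 and 3 were below all WT arrays and replicate 4 was among them. The log2 difference was -1.27 (SE 0.38, adjusted p = 0.292), or -1.68 without NS-DADm replicate 4, when it passed the test (adjusted p = 0.0218). Cyp7b1, which hydroxylates 27- and 25-hydroxycholesterol, was at -0.42 (adjusted p = 0.448). Leaving out NS-DADm replicate 4 gave -0.23 and leaving out NS-DADm replicate 3 gave -0.52. Cyp27a1 and Ch25h, which form oxysterols, were at -0.07 and 0.09. Ch25h was low in both groups, with means of 5.71 for WT and 5.80 for the mutants.

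Genes of HDL formation and reverse cholesterol transport held 15 measured members, none past the test, with a median of -0.01. The endothelial lipase gene Lipg was at -0.41 (adjusted p = 0.458). Leaving out NS-DADm replicate 1 gave -0.25 and leaving out NS-DADm replicate 4 gave -0.53. Pltp, given above, and the cholesterol ester hydrolase gene Nceh1, at 0.23 (adjusted p = 0.537), came next. For Nceh1 leaving out NS-DADm replicate 3 gave 0.15 and leaving out NS-DADm replicate 4 gave 0.30. Apoa1, the main HDL protein, was at 0.01, with a WT mean of 13.87 near the top of the scale. Scarb1, the HDL receptor, was at -0.12 (adjusted p = 0.530). The SREBP2 targets and sensors, genes of the response to low sterol, had none past the test, 15 of 16 above 0 and a median of 0.29. Their mean was 10.96, 10.83, 10.64 and 10.27 in NS-DADm replicates 1 to 4, against 10.33 to 10.50 in WT. Mutant replicate 4 was thus below all WT arrays and the other mutants above them. Hmgcs1 (0.66), Idi1 (0.48) and Sqle (0.42) had the largest values, with adjusted p of 0.263, 0.467 and 0.636. Without NS-DADm replicate 4 the median was 0.39 and 4 of the 16 passed the test, Hmgcs1, Idi1, Cyp51 and Pmvk, in a fit that called 126 of all 19934 genes. Without NS-DADm replicate 1 the median was 0.18, and Sqle was at 0.25, against 0.67 without NS-DADm replicate 4.

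**Figure D4:**
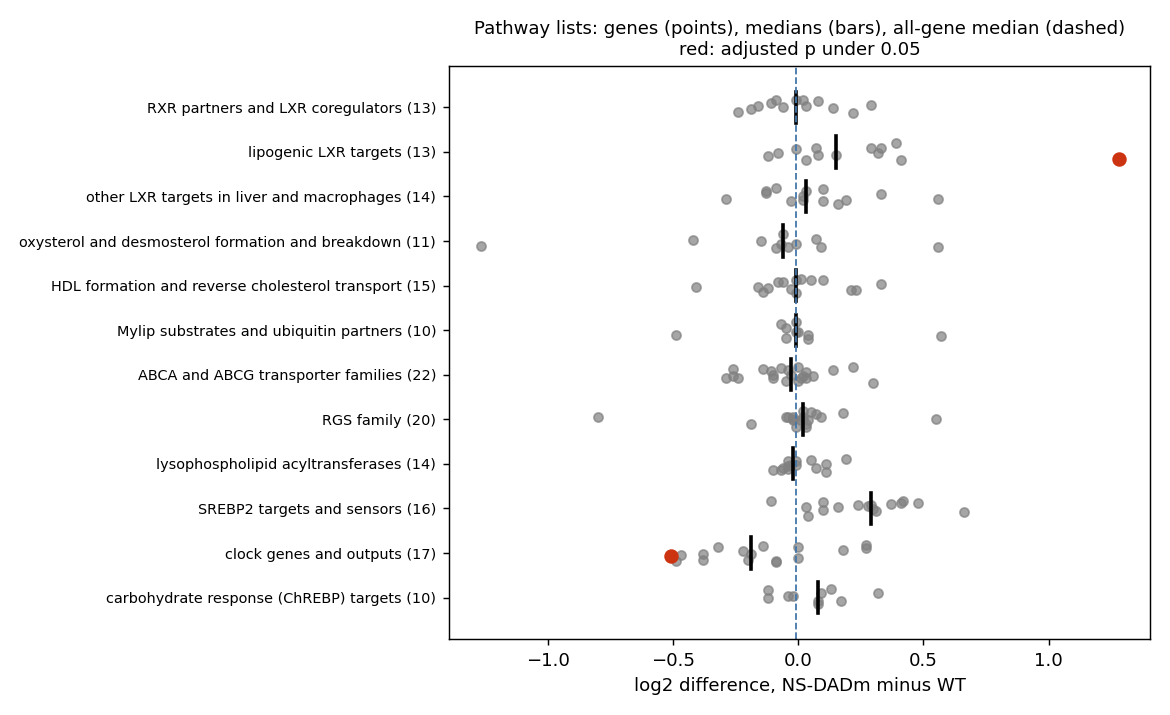
Log2 difference, NS-DADm minus WT, of each gene of 12 pathway lists, with the number measured in parentheses, list medians as bars and the median of all genes as a dashed line. Only Cd36 and Cry2 pass the test, and medians run from -0.19 for the clock list to 0.29 for the SREBP2 list.

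Within each genotype the members also varied among arrays. Deviations from the group means were compared for all 28 pairs of members over 8 arrays, with exact permutation of arrays within each group. No pair passed by Pearson r after adjustment over the 28 pairs. Among the Pearson values the lowest p was that of Nr1h3 and Rgs16, with r = -0.84 (exact permutation p = 0.0139, adjusted p = 0.331) and Spearman rho = -0.76 (exact permutation p = 0.066), and r = -0.86 without the 2 arrays farthest from the Nr1h3 median. Among the Spearman values it was that of Rgs16 and Lpcat3, with rho = 0.93 (exact permutation p = 0.00694), where r was 0.59 (exact permutation p = 0.0972, adjusted p = 0.373), or 0.78 without the 2 arrays farthest from the Rgs16 median. Adjustment was made on the Pearson p alone. Abcg5 and Abcg8, the partners, had r = 0.58 (exact permutation p = 0.2, adjusted p = 0.399), rho = 0.50 (exact permutation p = 0.273) and r = 0.39 without the 2 arrays farthest from the Abcg5 median. The gene whose within-group deviations were most like those of each member, among 9640 named genes at or above the median level and over 8 arrays, was Heatr5a for Abcg5 (r = 0.987), Dop1b for Abcg8 (0.987), Sap30l for Nr1h3 (0.987) and Zdhhc5 for Abca1 (0.986). It was Mgst3 for Abcg1 (0.991), Iyd for Mylip (0.981), Stra6l for Rgs16 (0.935) and Sh3bgrl for Lpcat3 (0.991). The next most alike were Simc1, Traf4, Hgsnat, Tsr1, H2-Eb1, Pisd-ps2, Spsb2 and Wdr61, in the same order of members. The points share their arrays and each gene was picked as the best of 9640, so the r values carry no test.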

How the data were processed

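Per the labels, RNA from 4 NS-DADm and 4 WT livers was isolated by Trizol and a kit, labelled with biotin and hybridised to 1 array each. The authors deposited 1 table of 28270 probe sets by 8 arrays, in log2 intensity as read from its range of 3.43 to 14.37. Per the submitters' processing notes the authors used RMA and Partek, with order, versions and settings not given in the sources used here. RMA compresses small differences at low intensity. No batch or detection call was used here, and the number of arrays limits the precision. Array medians ran from 7.39 to 7.50.

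Groups came from the sample titles. Of the probe sets 21780 named 1 gene, 1617 several and 4873 none in the platform annotation. Symbols were updated by Entrez Gene identifier, matching 19852 of 19934 genes in a GRCm38.p6 table. Genes with several probe sets were read from the one with the highest mean. limma 3.58.1 in R 4.3.3 compared the groups (lmFit, eBayes, two-sided, Benjamini-Hochberg over all genes, threshold 0.05), with no filter on low values. Errors are SDs over 4 arrays. The test was checked on simulated data. Alternatives covered probe sets, filters, normalization, variances, array weights, the replicate block and each array left out. A fit with array SD as covariate was chosen after seeing the data, as were the AGATAA and TATAAA motifs and the relation of members to the SREBP2 list.

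The members and gene lists were chosen with earlier results of these data known. Named genes were all measured members, the called genes of each list, or else up to 3 with the largest absolute difference, the RXR genes, the MYLIP substrates, and for each member the 2 genes most alike in within-group deviations. Genes named beyond that rule (Srebf1, Scd1, Cyp27a1, Ch25h, Apoa1, Scarb1 and the Ube2 genes) were chosen after their values were seen, as central members of their lists. Fasn, Elovl6 and Acaca were added in the same way, as the largest lipogenic values after Cd36. Python 3.11.15, pandas 2.3.3 and matplotlib 3.10.9 made tables and plots.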

Additional observations from a re-analysis of the deposited data

Results flagged for a closer look

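Abcg5 in NS-DADm replicate 1, at 11.60, lay apart from the other mutant arrays (11.75 to 11.77). The gap was 0.874 of the range of the group, above Dixon's critical value for 4 samples. It was the 1 such case among 16 groups of 4 arrays examined, and chance alone gives about 1 in 20. Without that array the Abcg5 difference was -0.22 (adjusted p = 0.423).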

How the results depend on the processing

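Each member difference was recomputed under 19 alternatives, 11 of the processing and 8 that left out 1 array each. Of the 152 resulting values 150 kept their direction and their side of the threshold. Rgs16 ranged from -0.99 to -0.67 over the arrays left out and passed the test once, without NS-DADm replicate 1 (adjusted p = 0.0453), so the number of members called was 0 to 1. Abcg1 ranged from -0.03 to 0.13 and was below 0 once, without NS-DADm replicate 4. Over all alternatives the adjusted p ran from 0.074 to 0.432 for Abcg5, 0.0563 to 0.474 for Abcg8, 0.0915 to 0.696 for Mylip and 0.0453 to 0.469 for Rgs16. The count of called genes was 54, but 109 with array weights, 105 with the replicate block, 0 without shared variances (1709 at an unadjusted p under 0.05, against 1859 with limma's shared variances) and 13 to 126 over the arrays left out. Whether the replicate numbers pair the samples is not known. Same-numbered arrays had correlations of deviations of 0.146, 0.048, -0.102 and 0.247 for replicates 1 to 4. The WT array most like the mutant one was the same-numbered one for replicates 1 and 4, but not for 2 and 3. These correlations cannot decide the pairing. The block changed no member call and called Rgs1 (adjusted p = 0.0242). Ppargc1a ranged from -0.53 to 0.04 over the arrays left out, above 0 without NS-DADm replicate 1. The cause was not tested for any of these.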

Other observations

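The relation of each member to the mean of the 16 SREBP2 targets and sensors within genotypes was examined after the arrays had been seen, as 8 relations over 8 arrays. None passed after adjustment over the 8. Abcg1 had Pearson r = -0.96 (exact permutation p = 0.00868, adjusted p = 0.0694) and Spearman rho = -0.90 (exact permutation p = 0.0156), and r = -0.74 without the 2 arrays farthest from the Abcg1 median. The other 7 members had r from -0.73 (Mylip) to 0.77 (Abca1), with adjusted p of 0.306 or more. These values pool both genotypes. Mylip had r = -0.97 in NS-DADm and 0.92 in WT arrays, and 0.18 without the 2 arrays farthest from the Mylip median. For Abca1 they were 0.89 in NS-DADm and -0.02 in WT, and for Abcg1 -0.99 and -0.62. The list mean spanned 10.27 to 10.96 in NS-DADm and 10.33 to 10.50 in WT arrays.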
